A study of Mus musculus with 18 samples.

Results

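The metabotropic glutamate receptor genes Grm2, Grm3, Grm4, Grm5, Grm7 and Grm8 and the Homer scaffold genes Homer1, Homer2 and Homer3 were followed across 3 brain regions and 2 genotypes. The 9 genes were listed by name, by a rule that states no measured value but was drawn up with earlier results of these data known, and were matched to Ensembl identifiers with GENCODE release M21. All 9 were among the 53468 genes of the deposited count table. The brains came from Fmr1CRE knock-in mice and wild-type (WT) littermates at postnatal day 25 (P25). The knock-in mice carry, by CRISPR/Cas9 editing on a C57BL/6 background, the mouse counterpart of a human nucleotide change in a cis-regulatory element (CRE) linked to Fmr1. Several lines were made, and which line supplied these mice is not stated in the sources used here. Each of 3 mice per genotype gave 1 library of poly(A) RNA from the forebrain, 1 from the midbrain and 1 from the hindbrain, 18 libraries in all. Libraries are named here by region, genotype and replicate, and a replicate number stands for 1 mouse of each genotype.

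Metabotropic glutamate receptors are G protein-coupled receptors of the synapse. Group I receptors, of which Grm5 encodes mGlu5, couple to Gq and phospholipase C and sit mainly at the postsynaptic side. Group II receptors (Grm2 and Grm3) and group III receptors (Grm4, Grm7 and Grm8) couple to Gi/o proteins, lower cyclic AMP and mostly restrain transmitter release. Long Homer proteins pair through a coiled coil and tie group I receptors to Shank scaffolds and to calcium channels of the endoplasmic reticulum. Short Homer1 proteins such as Homer1a lack the coiled coil, are made from the same gene after neuronal activity as an immediate early gene product, and uncouple these links. The protein encoded by Fmr1 represses translation downstream of group I receptors, and long-term depression driven by these receptors was 1 of the readouts of the study. The question followed here was how the mRNA of the receptors and scaffolds was distributed over the regions, and whether it differed between Fmr1CRE and WT.

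The libraries held 22455512 to 28061185 counts in genes, and a member had from 70 counts (Grm2, a hindbrain library) to 5209 counts (Homer1, a forebrain library). Levels are given as counts scaled to the size of the library (CPM), and levels of different genes are compared only as TPM, the share of transcripts, which also divides by transcript length. Region markers fitted the labels in part. Summed CPM of 6 Hox genes of the hindbrain ran from 49.7 to 60.7 in hindbrain libraries and reached 4.14 at most in midbrain and 0.119 in forebrain, where Hoxd3 and Hoxc4 were at 0. Summed CPM of 7 midbrain markers ran from 59.4 to 142 in midbrain, against 4.38 to 22.2 in forebrain and 16.5 to 42.9 in hindbrain. Summed CPM of 7 forebrain markers ran from 283 to 401 in forebrain and still from 179 to 303 in midbrain, against 7.46 to 13.2 in hindbrain, so the midbrain libraries held forebrain transcripts. Cerebellar granule and Purkinje cell markers had their highest sums in hindbrain and their lowest in forebrain, where they were not at 0. Fmr1 itself was called in none of the 3 regions, with log2 fold changes of -0.0033 (forebrain), 0.0056 (midbrain) and 0.15 (hindbrain) between Fmr1CRE and WT (edgeR adjusted p between 0.907 and 0.996). In these bulk samples, fewer cells of a type and less RNA per cell cannot be told apart.

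Some libraries did not sit well with their labels. Genes were taken whose log2 CPM differed by more than 3, in the same direction, between the mice of a replicate number in 2 regions, and their direction was read in the third region. In forebrain, 18 of 22 such genes went the opposite way for replicate 3, 11 of them by more than 3. Replicate 1 had 4 of 20 (2 by more than 3) and replicate 2 had 7 of 16 (5 by more than 3). In the midbrain and hindbrain of replicate 3, 8 of 14 and 7 of 12 went the opposite way. The same regions had 2 of 17 and 5 of 19 for replicate 1, and 2 of 13 and 8 of 17 for replicate 2. The labels were kept, and the genotype differences of the members are also given without both mice of replicate 3. The transcript tables also needed placing. In 18 of 18 the gene totals matched the count column named in the file to within 0.163% of the reads, with the next closest library at least 9.23% away, but only 2 of 18 were attached to the sample record of that library. Homer1 transcript values were therefore placed by this match and were described without a test.

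Homer1 lies on the plus strand of chromosome 13 (GRCm38, chr13:93299635-93405129). Of its 12 annotated transcripts, 8 have a coding sequence of under 250 codons and are called short here, 3 are long and 1 is non-coding. The long transcripts Homer1-202 and Homer1-203 (370 and 366 codons) and the short transcript Homer1-204 (186 codons) together held 80.2% to 91.8% of the estimated Homer1 reads of a library. The transcripts shown share their coding sequence up to the base at chr13:93356079 and part ways after it. The coding sequence around that point is shown because the short share of Homer1 rests on it. In each line the last 30 shared coding bases are in lower case, and the coding bases that follow in that transcript are in capitals, up to the stop codon for the short transcripts and for the first 85 bases in the long one.
Homer1-204, short: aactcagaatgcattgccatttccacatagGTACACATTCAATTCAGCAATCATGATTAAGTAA
Homer1-207, short: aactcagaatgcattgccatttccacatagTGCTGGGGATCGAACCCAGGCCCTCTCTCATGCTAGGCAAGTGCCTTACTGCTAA
Homer1-205, short: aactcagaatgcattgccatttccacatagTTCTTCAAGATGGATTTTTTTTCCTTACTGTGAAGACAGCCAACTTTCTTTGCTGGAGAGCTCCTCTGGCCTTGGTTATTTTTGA
Homer1-202, long: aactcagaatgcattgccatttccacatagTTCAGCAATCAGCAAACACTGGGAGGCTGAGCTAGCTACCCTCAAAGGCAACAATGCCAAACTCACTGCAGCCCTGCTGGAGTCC
In Homer1-204 the capitals continue without a gap to chr13:93356113, that is, the exon runs on into the intron. In Homer1-205, Homer1-207 and Homer1-202 they lie in later exons that begin at chr13:93366243, chr13:93386345 and chr13:93387524.

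Homer1 had 2 promoters in the RefSeq table used here (GRCm38.p6), and the 250 bases before each start site are shown because the short form of Homer1 belongs to the immediate early genes, whose values are given beside it further on. The first ends at the base before the start of the short transcript Homer1-207 and lies at chr13:93303507-93303756, plus strand. Its capitals mark the core TGACG of the cAMP response element, searched on both strands (CGTCA on the other).
Homer1, first promoter: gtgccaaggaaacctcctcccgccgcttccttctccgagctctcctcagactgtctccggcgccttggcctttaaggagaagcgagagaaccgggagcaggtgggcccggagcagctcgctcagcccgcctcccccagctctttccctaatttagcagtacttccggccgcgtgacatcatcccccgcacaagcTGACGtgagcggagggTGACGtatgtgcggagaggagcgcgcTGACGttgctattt
The second ends at the base before the start of the long transcript Homer1-202 and lies at chr13:93307784-93308033.
Homer1, second promoter: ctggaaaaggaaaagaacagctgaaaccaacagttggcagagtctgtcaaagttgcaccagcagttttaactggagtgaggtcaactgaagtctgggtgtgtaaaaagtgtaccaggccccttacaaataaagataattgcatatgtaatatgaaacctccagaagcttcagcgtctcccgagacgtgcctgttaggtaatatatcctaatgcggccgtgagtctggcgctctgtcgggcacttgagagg
Counted from 250 bases before to 50 after the start, the core was found 3 times at the first promoter and 0 times at the second, and 20.8% of the 32851 promoters in the table held it on either strand. Promoters were matched for 7 of the 9 members, and beside Homer1 only Grm8 held the core. The whole site TGACGTCA, which contains the core on each strand, was in 1.79% of all promoters and in 0 of the 12 promoters of the members. A match of letters is a description of the window and not a bound site. The short Homer1-204 starts at chr13:93304495 and the long Homer1-203 at chr13:93304799. Both lie between the 2 start sites shown, which therefore do not divide short from long transcripts.

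Most members were higher in the anterior brain, and Grm4 and Homer3 were higher in the posterior brain. Against hindbrain, 6 of the 9 members were higher in forebrain and 2 were higher in hindbrain, while 26.4% and 25.3% of all 20363 genes tested were called in these directions. With a log2 fold change of at least 1 in size as a further demand, 7 members were called, against 18.7% of all genes. Between midbrain and hindbrain, 7 members were higher in midbrain and 1 was higher in hindbrain, with 25.1% and 24% of all genes called, and 5 members reached a log2 fold change of 1, against 14.8%. Forebrain and midbrain were closer. There 3 members were higher in forebrain and 3 in midbrain, with 9.38% and 9.96% of all genes called, and 2 members reached a log2 fold change of 1, against 4.09%. The median size of the log2 fold change over the 9 members was 1.69 for forebrain against hindbrain, 0.65 for forebrain against midbrain and 1.01 for midbrain against hindbrain, beside 0.42, 0.23 and 0.39 over all genes. The comparisons share libraries and are not independent of each other. All region calls come from edgeR's quasi-likelihood test on the 18 libraries, at an adjusted p under 0.05 over all genes tested.

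**Figure D1:**
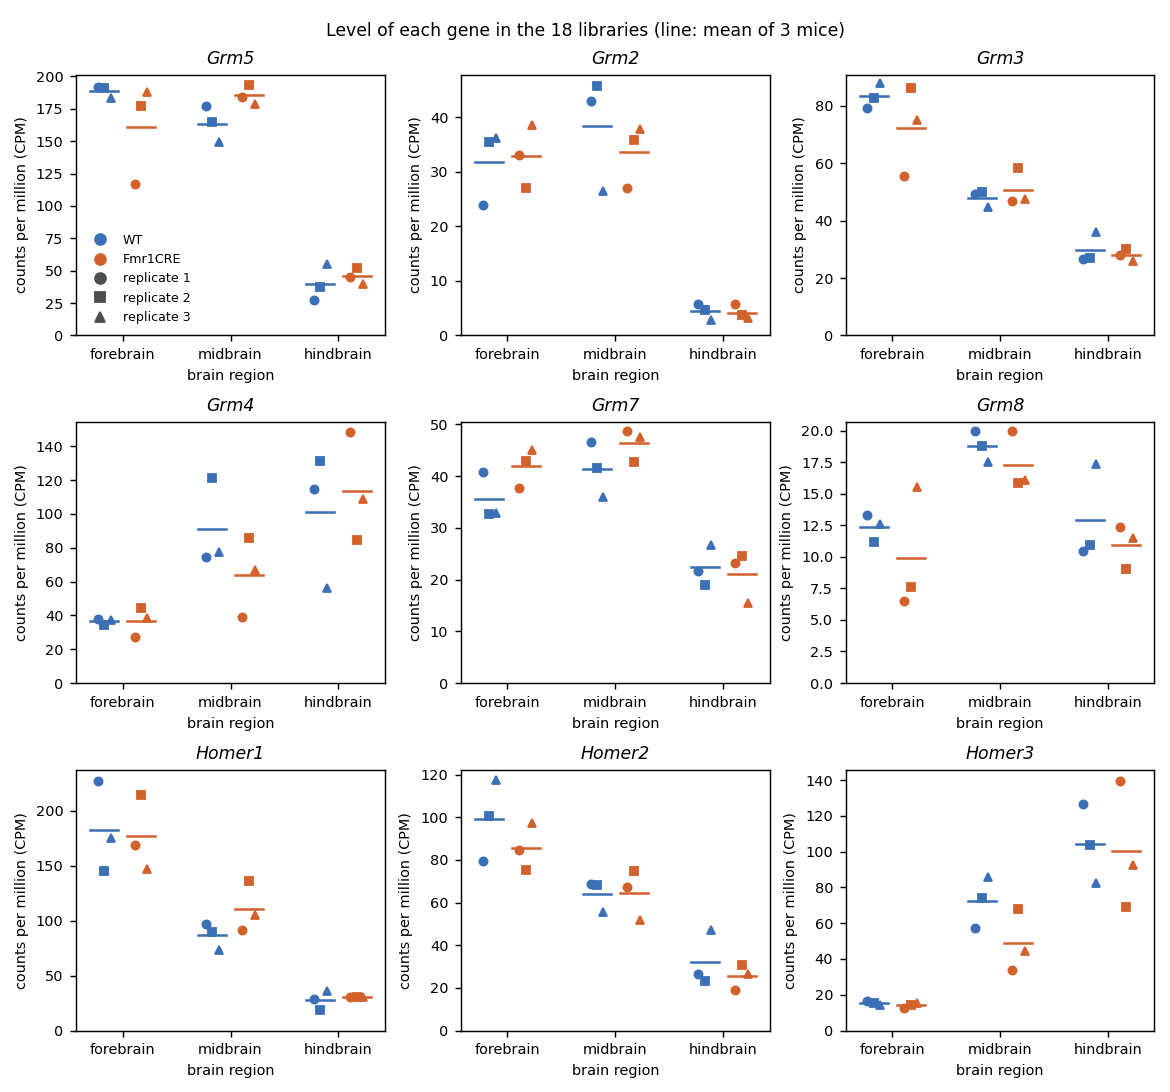
Level of the 9 genes in CPM (vertical axes, linear from 0) in the 18 libraries, by brain region, with blue for WT and orange for Fmr1CRE, 1 symbol per replicate number and a line at the mean of 3 mice. Grm2 and Grm5 dropped in hindbrain, Homer1 stepped down from forebrain to hindbrain, and Grm4 and Homer3 ran the other way.

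Grm5 (chr7:87584168-88134907, plus strand), the group I receptor, was an anterior gene. Its CPM ran from 117 to 192 over the 6 forebrain libraries (median 186), from 149 to 193 across midbrain (median 178) and from 27.2 to 55.4 across hindbrain (median 42.4). Forebrain and midbrain overlapped, and hindbrain lay wholly below both. The level was 4.07 times as high in forebrain as in hindbrain (95% interval 3.27 to 5.07, adjusted p = 1.43e-08) and 4.07 times as high in midbrain (3.27 to 5.07, adjusted p = 3.13e-08), higher in 6 of 6 mice each time. Forebrain and midbrain differed by a log2 fold change of -0.000032 (95% interval -0.30 to 0.30), which was not called. The lowest forebrain value, 117 CPM, belonged to Fmr1CRE replicate 1. That library also had the lowest summed CPM of 6 striatal projection neuron markers, 457 compared with 845 to 1310 in the other 5, and of 6 cortical and hippocampal excitatory neuron markers, 2450 compared with 4007 to 6036. The part of cell composition in this value was not tested. The same excitatory neuron markers summed to 1671 to 3238 CPM in midbrain and 217 to 321 CPM in hindbrain. The part of forebrain tissue in the midbrain level of Grm5 was not tested.

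The group II receptors were anterior as well, with different slopes. Grm2 (chr9:106643095-106656082, minus strand), a presynaptic autoreceptor at many forebrain synapses, ran from 23.9 to 38.6 CPM in forebrain (median 34.3), from 26.6 to 45.7 across midbrain (median 36.9) and from 2.77 to 5.75 across hindbrain (median 4.24). It was 7.49 times as high in forebrain as in hindbrain (5.497 to 10.19, adjusted p = 1.08e-08) and 8.31 times as high in midbrain (6.09 to 11.3, adjusted p = 1.39e-08), the steepest ratios among the 9 genes. Forebrain and midbrain overlapped and their difference, -0.15 on the log2 scale (-0.55 to 0.25), was not called.

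Grm3 (chr5:9485541-9725170, minus strand), the group II receptor that astrocytes also carry, stepped down more evenly. It ran from 55.5 to 87.9 CPM in forebrain (median 81.1), from 44.7 to 58.3 across midbrain (median 48.4) and from 25.9 to 36.1 across hindbrain (median 27.5). All 3 steps were called, with ratios of 2.68 for forebrain against hindbrain (2.28 to 3.15, adjusted p = 2.27e-08), 1.57 for forebrain against midbrain (1.34 to 1.84, adjusted p = 0.000549) and 1.71 for midbrain against hindbrain (1.45 to 2.00, adjusted p = 2.86e-05). Each step had the same direction in 6 of 6 mice. The ranges of forebrain and midbrain touched only through Fmr1CRE forebrain replicate 1, the library with few neuronal marker reads, whose summed CPM of 6 astrocyte markers (3176) was also the lowest of the forebrain (4595 to 6715 in the others).

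The group III receptors went 3 ways. Grm4 (chr17:27422387-27521403, minus strand), the receptor of cerebellar granule cell terminals, ran from 27.4 to 44.6 CPM in forebrain (median 37.6), from 39.0 to 121 across midbrain (median 76.1) and from 56.4 to 148 across hindbrain (median 112). Hindbrain lay above forebrain with no overlap, by a ratio of 2.92 (log2 fold change of -1.55 for forebrain minus hindbrain, -2.04 to -1.06, adjusted p = 3.67e-05). Midbrain was 2.08 times as high as forebrain, in 6 of 6 mice (log2 -1.06, -1.54 to -0.57, adjusted p = 0.00439). Midbrain and hindbrain overlapped, and their difference of -0.49 (-0.97 to -0.013) had an adjusted p of 0.0828. It passed the threshold with total counts as the only scaling (adjusted p = 0.0387), with a minimum of 10 counts in every library (0.0496) and without Fmr1CRE replicate 2 (-0.70, adjusted p = 0.0266), and in 4 of 6 mice hindbrain was the higher.

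Grm7 (chr6:110645581-111567230, plus strand), the receptor of the presynaptic active zone, ran from 32.7 to 45.1 CPM in forebrain (median 39.3), from 35.9 to 48.8 across midbrain (median 44.6) and from 15.5 to 26.7 across hindbrain (median 22.4). Hindbrain lay below both other regions without overlap, by ratios of 1.77 for forebrain (1.49 to 2.11, adjusted p = 2.76e-05) and 2.01 for midbrain (1.69 to 2.40, adjusted p = 5.53e-06). The forebrain and midbrain values were not told apart (log2 -0.18, -0.43 to 0.069).

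Grm8 (chr6:27275119-28135178, minus strand), the lowest of the 9 in forebrain and midbrain per length, was the 1 member called higher in midbrain than in both other regions. It ran from 6.48 to 15.6 CPM in forebrain (median 11.9), from 15.9 to 20 across midbrain (median 18.1) and from 9.06 to 17.4 across hindbrain (median 11.2). Midbrain exceeded forebrain without overlap (log2 -0.71 for forebrain minus midbrain, -1.10 to -0.31, adjusted p = 0.0153) and exceeded hindbrain in 6 of 6 mice with ranges that overlapped (0.60, 0.20 to 0.99, adjusted p = 0.0148). The first call was lost without WT replicate 1 (adjusted p = 0.0606), WT replicate 2 (0.0666) or Fmr1CRE replicate 1 (0.0873), and the second without WT replicate 1 (0.0875) or WT replicate 2 (0.0601). Forebrain and hindbrain were not told apart (-0.11, -0.51 to 0.29), and the sign of that difference changed without WT replicate 3 (0.023) or Fmr1CRE replicate 1 (0.059).

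Homer1, the scaffold with long and short forms, stepped down from forebrain to hindbrain. It ran from 145 to 227 CPM in forebrain (median 172), from 73.7 to 136 across midbrain (median 94.4) and from 18.6 to 35.9 across hindbrain (median 30.2). The 3 regions did not overlap, and each step was the same in 6 of 6 mice. Forebrain was 6.23 times as high as hindbrain (4.88 to 7.94, adjusted p = 2.03e-09) and 1.83 times as high as midbrain (1.46 to 2.30, adjusted p = 0.00101), and midbrain was 3.40 times as high as hindbrain (2.68 to 4.30, adjusted p = 3.09e-07).

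Homer2 (chr7:81600481-81707527, minus strand), a scaffold with long forms, ran from 75.2 to 117 CPM in forebrain (median 91.0), from 51.7 to 74.7 across midbrain (median 67.8) and from 19.2 to 46.9 across hindbrain (median 26.4). Ranges did not overlap. The ratio was 3.22 for forebrain against hindbrain (2.49 to 4.16, adjusted p = 7.01e-07), 2.25 for midbrain against hindbrain (1.74 to 2.90, adjusted p = 4.50e-05) and 1.43 for forebrain against midbrain (1.12 to 1.84, adjusted p = 0.0422). The last call was lost without both mice of replicate 3 (log2 0.28, adjusted p = 0.203) and when any single mouse other than Fmr1CRE replicate 2 was left out, with adjusted p of 0.0595 to 0.175.

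Homer3 (chr8:70282827-70294361, plus strand), the Homer of Purkinje cell spines, was the mirror image of Homer1. It ran from 12.8 to 16.8 CPM in forebrain (median 14.8), from 33.8 to 85.8 across midbrain (median 62.9) and from 69.0 to 140 across hindbrain (median 98.1). Forebrain lay below both other regions without overlap, and the log2 fold change was -2.79 against hindbrain (-3.21 to -2.37, adjusted p = 8.04e-09) and -2.01 against midbrain (-2.41 to -1.60, adjusted p = 3.79e-06). Midbrain and hindbrain overlapped, with hindbrain higher in 5 of 6 mice (log2 -0.78, -1.17 to -0.40, adjusted p = 0.00219). Without both mice of replicate 3, 8, 5 and 8 members were called in the comparisons of forebrain with hindbrain, forebrain with midbrain and midbrain with hindbrain. Of all 20602 genes tested there, 8944, 3821 and 8867 were called.

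**Figure D2:**
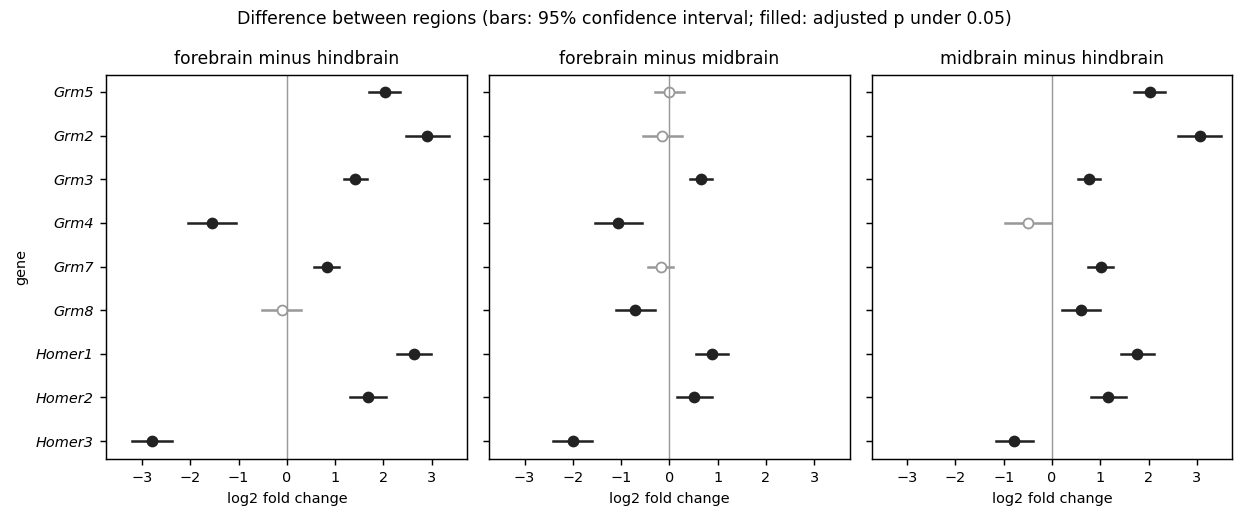
Log2 fold change of the 9 genes for each pair of regions (horizontal axes), with 95% confidence intervals as bars. Filled points passed an adjusted p of 0.05. In the first panel Grm4 and Homer3 lie left of 0, Grm8 lies at -0.11 and the other 6 lie between 0.82 and 2.90.

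Cerebellar markers are given beside Grm4 and Homer3, the posterior members. The granule cell markers were Gabra6, Cbln3, Cbln1, Neurod1 and Fat2. The Purkinje cell markers were Pcp2, Calb1, Car8, Ppp1r17 and Pvalb. Their values were summed and not read singly, so the sums need not stand for these cells alone. Summed CPM of 5 granule cell markers ran from 20.4 to 37.9 in forebrain, from 180 to 485 across midbrain and from 483 to 1200 across hindbrain, and that of 5 Purkinje cell markers from 179 to 240, 399 to 928 and 995 to 2006. Among the midbrain libraries, Fmr1CRE replicate 1 was the lowest in both sums (180 and 399) and also the lowest in Grm4 (39.0) and Homer3 (33.8). Among the hindbrain libraries, Fmr1CRE replicate 1 was the highest in both sums (1200 and 2006), in Grm4 (148) and in Homer3 (140). The order did not hold throughout. Fmr1CRE hindbrain replicate 2 had the lowest sums of its region (483 and 995) and the lowest Homer3 (69.0 CPM), but its Grm4 of 84.5 CPM lay above that of WT replicate 3 (56.4 CPM, with sums of 547 and 1205). WT midbrain replicate 2 had the highest Grm4 of its region (121 CPM) beside sums of 473 and 683. The part that the amount of cerebellum in a dissection had in these values was not tested.

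**Figure D3:**
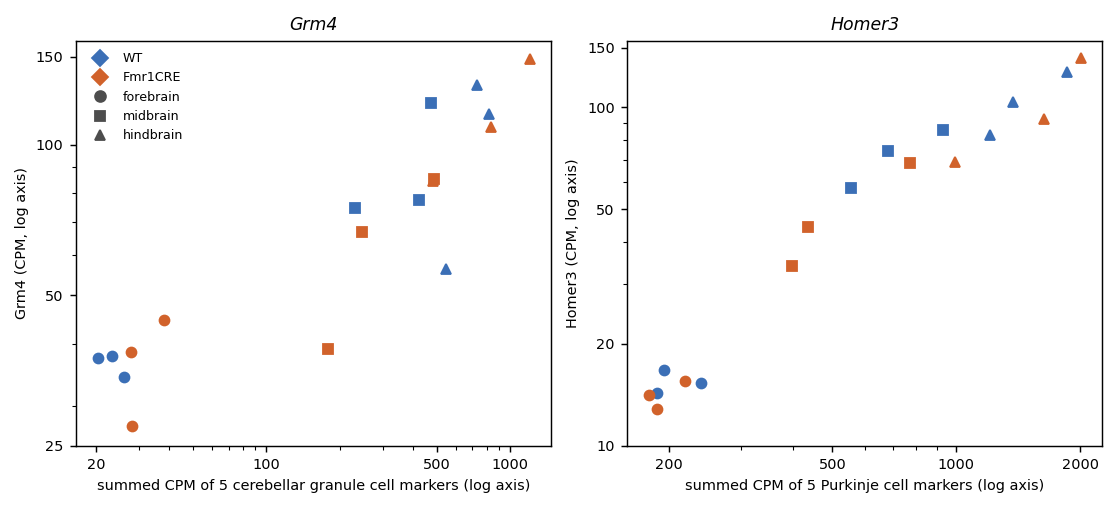
Left, Grm4 against the summed CPM of 5 granule cell markers; right, Homer3 against that of 5 Purkinje cell markers, 1 point per library on log axes in CPM, with blue for WT and orange for Fmr1CRE and a symbol per region. Within midbrain and within hindbrain the library with the lowest Purkinje sum had the lowest Homer3 (33.8 CPM at 399, 69.0 CPM at 995), while between these ends some libraries with a higher sum had less Homer3.

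Per unit of length, the order of the 9 genes changed from region to region. In forebrain Homer1 led with 26.0 TPM ± 7.16 (SD, n = 6) and did not overlap with the next gene, Grm5 at 12.8 ± 2.84. There followed Grm3 at 11.9 ± 2.21, Homer2 at 7.49 ± 1.06, Grm7 at 7.11 ± 1.42, Grm2 at 3.78 ± 0.53, Homer3 at 3.42 ± 0.64, Grm4 at 3.03 ± 0.61 and Grm8 at 2.18 ± 0.79, all in TPM. Among these neighbours only Grm7 and Grm2 did not overlap. In midbrain Homer1 (18.1 ± 4.46 TPM), Homer3 (17.8 ± 5.96) and Grm5 (16.2 ± 2.09) overlapped at the top. Grm7 (10.2 ± 1.43 TPM) came next and lay below Homer1 and Grm5 without overlap, but overlapped with Homer3, which ran from 8.47 to 23.8 TPM. Grm3 (9.62 ± 1.503 TPM), Grm4 (8.25 ± 3.39), Homer2 (6.70 ± 1.21), Grm2 (5.49 ± 1.67) and Grm8 (4.43 ± 0.61) came after it, each overlapping with its neighbour. In hindbrain Homer3 stood alone at 25.03 TPM ± 5.29, followed by Grm4 at 9.47 ± 2.72. Grm3 (4.79 ± 0.81 TPM), Homer1 (4.47 ± 0.97), Grm7 (4.32 ± 1.01), Grm5 (3.41 ± 1.02), Homer2 (2.55 ± 0.88) and Grm8 (2.48 ± 0.51) overlapped in turn, and Grm2 was lowest, without overlap, at 0.55 ± 0.15. So the Homer gene with the most transcripts was Homer1 in forebrain and Homer3 in hindbrain. With the longest annotated transcript as the length, Homer3 led in midbrain in place of Homer1, and ranks below the top moved in each region. Grm5 passed Homer1 in midbrain and hindbrain. In forebrain Grm3 passed Grm5, Grm7 passed Homer2, and Grm4 passed Grm2 and Homer3.

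The members also differed in how much mice of a region varied. The coefficient of variation over the 6 libraries was lowest for Grm5 in midbrain (8.93%), Homer3 in forebrain (9.23%) and Grm3 in midbrain (9.64%). It was highest for Grm4 in midbrain (34.5%), Homer2 in hindbrain (33.5%), Homer3 in midbrain (31.9%) and Grm8 in forebrain (31.4%). Over the 18 libraries, which differ above all by region, log2 CPM of Homer1 and Grm3 had a Pearson r of 0.95, Grm5 and Grm2 one of 0.92, and Grm4 and Homer3 one of 0.92, while Grm3 and Homer3 had one of -0.88. These coefficients describe the shared region pattern.

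Genes whose log2 CPM followed a member most closely over the 18 libraries were read in the same way. For Grm5 they were Slitrk5 and Atrnl1 (r of 0.99 each), and for Grm2 Fam131a, Nell2 and Gprin1 (0.98 each). For Grm3 they were Gcnt2, Wsb2 and Apc (0.98 each), and for Grm4 Mrgprf, Mmp24 and Khnyn (0.97, 0.97 and 0.96). Grm7 was followed by Hrh1, Chrna5 and Ak5 (0.95, 0.94 and 0.94) and Grm8 by Tmem150c, Exoc2 and Rrn3 (0.93, 0.93 and 0.92). Homer1 was followed by Rims1, Inka2 and Tiam2 (0.99, 0.99 and 0.98), Homer2 by Gm37176, Kctd16 and Kcnh7 (0.97, 0.96 and 0.96), and Homer3 by Slc1a6, Gm13944 and Cbln1 (0.99 each). Cbln1 is 1 of the 5 granule cell markers above.

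The partners of the receptors and scaffolds showed the same slope in part, mainly against hindbrain. The counts below stand beside the shares of all 20363 genes called in each direction. These were 26.4% (higher in forebrain) and 25.3% (higher in hindbrain) for forebrain against hindbrain. They were 9.38% and 9.96% for forebrain against midbrain, and 25.1% and 24% for midbrain against hindbrain. Of 15 genes of group I signalling, 9 were higher in forebrain and 2 in hindbrain (median log2 fold change 0.74, over all genes -0.0085), 2 and 3 were called in forebrain against midbrain, and 10 and 0 in midbrain against hindbrain. Rgs4, which shortens Gq signals, was 5.49 times as high in forebrain as in hindbrain (547 against 99.7 CPM, adjusted p = 1.85e-11) and 2.35 times as high as in midbrain. Prkcb, a protein kinase C, was 4.59 times as high in forebrain as in hindbrain (561 against 123 CPM, adjusted p = 1.10e-11). Plcb4, the phospholipase of cerebellar and thalamic neurons, was higher in hindbrain than in forebrain (log2 -1.10, adjusted p = 4.92e-06). Trpc5 was higher in midbrain than in forebrain (-0.67, adjusted p = 0.00615), and Prkcb was 2.62 times as high in midbrain as in hindbrain (adjusted p = 2.85e-09).

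Of 19 genes of group II and III signalling and partners, 11 were higher in forebrain and 3 in hindbrain (median 0.71), 1 and 2 were called in forebrain against midbrain, and 12 and 3 in midbrain against hindbrain. Adcy5, the adenylyl cyclase of striatum, was 6.07 times as high in forebrain as in hindbrain (434 against 71.8 CPM, adjusted p = 1.46e-06), and Kcnj6, a potassium channel opened by Gi/o proteins, 3.99 times (15.5 against 4.02 CPM, adjusted p = 9.29e-08). Elfn2, a synaptic adhesion protein that binds group III receptors, was 4.17 times as high in midbrain as in hindbrain (adjusted p = 2.41e-06). Rimkla and Folh1, which make and degrade the peptide N-acetylaspartylglutamate, a ligand of Grm3's receptor, were higher in hindbrain than in forebrain by log2 1.68 and 1.25 in size (adjusted p of 8.04e-10 and 4.45e-05). Adcy8 was higher in midbrain than in forebrain (-0.75, adjusted p = 0.000195).

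Homer partners of the postsynaptic density were higher in forebrain and midbrain than in hindbrain almost throughout. Of 13 found among 14 symbols, 12 were higher in forebrain than in hindbrain and 0 lower (median 2.13), 7 and 0 were called in forebrain against midbrain (median 0.62), and 13 and 0 in midbrain against hindbrain (median 1.66). Dlgap2, a scaffold that links PSD-95 to Shank, was 14.3 times as high in forebrain as in hindbrain (49.9 against 3.50 CPM, adjusted p = 2.86e-10). Agap2, whose product PIKE binds Homer, was 13.6 times as high in forebrain as in hindbrain (1302 against 95.5 CPM, adjusted p = 1.33e-10), and Dlgap3 was 2.06 times as high in forebrain as in midbrain (adjusted p = 0.000307). Of the 13 immediate early genes other than Homer1, 10 were higher in forebrain than in hindbrain (median 2.51), 0 were called in forebrain against midbrain, and 10 were higher in midbrain than in hindbrain (median 2.18). The largest ratios were those of the transcription factor genes Egr2 and Egr4 (log2 6.10 and 4.18, adjusted p of 3.26e-05 and 2.04e-06), and Egr2 was near 0 in hindbrain, at 0.113 CPM.

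No member was called between the genotypes. Of the 9 genes, 0 passed an adjusted p of 0.05 in any region, beside (in the order forebrain, midbrain, hindbrain) 0%, 0.00543% and 0% of all genes tested, and 0 had an unadjusted p under 0.05. DESeq2 called 0 members in each region as well, and gave 0, 2 and 0 of them an unadjusted p under 0.05. In forebrain the log2 fold change for Fmr1CRE minus WT ran from -0.31 (Grm8) to 0.27 (Grm7), in midbrain from -0.58 (Homer3) to 0.35 (Homer1), and in hindbrain from -0.34 (Homer2) to 0.19 (Grm5). The median size over the members was 0.18, 0.18 and 0.12, beside 0.16, 0.13 and 0.16 over all genes. The ranges of the genotypes did not overlap for 0, 1 and 0 members, while 10.3%, 11.3% and 10.9% of all genes had ranges without overlap. An exact permutation test of 3 against 3 cannot go below a p of 0.1.

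Grm5 in midbrain was the 1 case without overlap. The WT libraries had 177, 165 and 149 CPM and the Fmr1CRE libraries 184, 193 and 179. The 3 Fmr1CRE values lay above the 3 WT values, by a log2 fold change of 0.18 (95% interval -0.021 to 0.38, edgeR p = 0.0727, adjusted p = 0.814, two-sided exact permutation p = 0.1). In forebrain the direction was the other one, with 192, 191 and 184 CPM in WT and 117, 177 and 188 in Fmr1CRE (log2 -0.21, -0.58 to 0.17), where Fmr1CRE replicate 1 was the library with few neuronal marker reads. In hindbrain the values were 27.2, 37.5 and 55.4 in WT and 45.0, 52.3 and 39.9 in Fmr1CRE, and the groups overlapped (0.19, -0.36 to 0.73). Without both mice of replicate 3 the hindbrain difference was 0.57 (adjusted p = 0.357). The difference between the regions in the effect on Grm5 was tested as an interaction and was not called (adjusted p = 0.743).

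Homer1 in midbrain had the smallest unadjusted p of the members (edgeR, 0.0568). WT libraries had 97.2, 89.3 and 73.7 CPM and Fmr1CRE libraries 91.5, 136 and 105. The groups overlapped through Fmr1CRE replicate 1, and the log2 fold change was 0.35 (-0.013 to 0.72, edgeR adjusted p = 0.806). In forebrain Homer1 had 227, 145 and 175 CPM in WT and 169, 215 and 147 in Fmr1CRE, with 1 low library in each genotype, and a log2 fold change of -0.010 (-0.48 to 0.46). Its sign turned without both mice of replicate 3 (0.093, adjusted p = 0.881). In hindbrain the Fmr1CRE libraries had 30.1, 30.3 and 30.2 CPM and lay inside the WT range of 28.3, 18.6 and 35.9 CPM (0.12, -0.37 to 0.62).

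Homer3 in midbrain differed by -0.58 (-1.18 to 0.024, edgeR adjusted p = 0.807), from 57.5, 74.0 and 85.8 CPM in WT to 33.8, 68.2 and 44.2 in Fmr1CRE. Grm4 there differed by -0.52 (-1.20 to 0.17), from 74.7, 121 and 77.5 CPM to 39.0, 85.5 and 66.8. In both genes Fmr1CRE replicate 2 lay among the WT values, and the granule cell sums were 230, 473 and 424 CPM in WT and 180, 485 and 246 in Fmr1CRE, so the 3 libraries with the lowest sums also had the 3 lowest values of each gene. The part of cerebellar tissue in these differences was not tested.

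Grm7 in forebrain had 40.9, 32.7 and 32.8 CPM in WT and 37.8, 42.9 and 45.1 in Fmr1CRE (log2 0.27, -0.021 to 0.56, edgeR adjusted p = 0.807). WT replicate 1 lay inside the Fmr1CRE range. The difference vanished when reads were summed per gene without scaling by transcript length (-0.011). Grm8 in forebrain had 13.3, 11.2 and 12.6 CPM in WT and 6.48, 7.58 and 15.6 in Fmr1CRE, where replicate 3 stood apart from the other Fmr1CRE mice. Its log2 fold change was -0.31 with all libraries (-1.01 to 0.39), -0.75 without both mice of replicate 3 (edgeR adjusted p = 0.274) and 0.078 when reads were summed without scaling by length. The other members had intervals that held 0 in each region, the widest of them for Grm2 in hindbrain, the gene with the fewest reads (-0.087, -0.87 to 0.69).

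Without both mice of replicate 3, the libraries that sat least well with their labels, 0 members were called in each region, and many differences moved. In forebrain the log2 fold change became -0.33 for Grm5, -0.20 for Homer3, 0.18 for Grm7, -0.15 for Grm3 and -0.12 for Homer2, while Grm2 and Grm4 stood at 0.069 and 0.046. In midbrain Homer3 shrank to -0.36 and Grm7 to 0.069, whereas Grm2 went from -0.19 to -0.48 and Grm4 from -0.52 to -0.65. Midbrain Grm5 and Homer1 stood at 0.16 and 0.30, and Grm3, Grm8 and Homer2 at 0.093, -0.099 and 0.068. In hindbrain the value of Homer1 went from 0.12 to 0.35, Grm2 and Homer3 stood at -0.17 and -0.16, and Grm8 and Homer2 came close to 0 (-0.014 and -0.0050). The signs of Grm3, Grm4 and Grm7 in hindbrain turned, to 0.10, -0.098 and 0.22. The lowest adjusted p of a member was 0.274 in forebrain (Grm8), 0.366 in midbrain (Grm2) and 0.357 in hindbrain (Grm5), by edgeR.

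**Figure D4:**
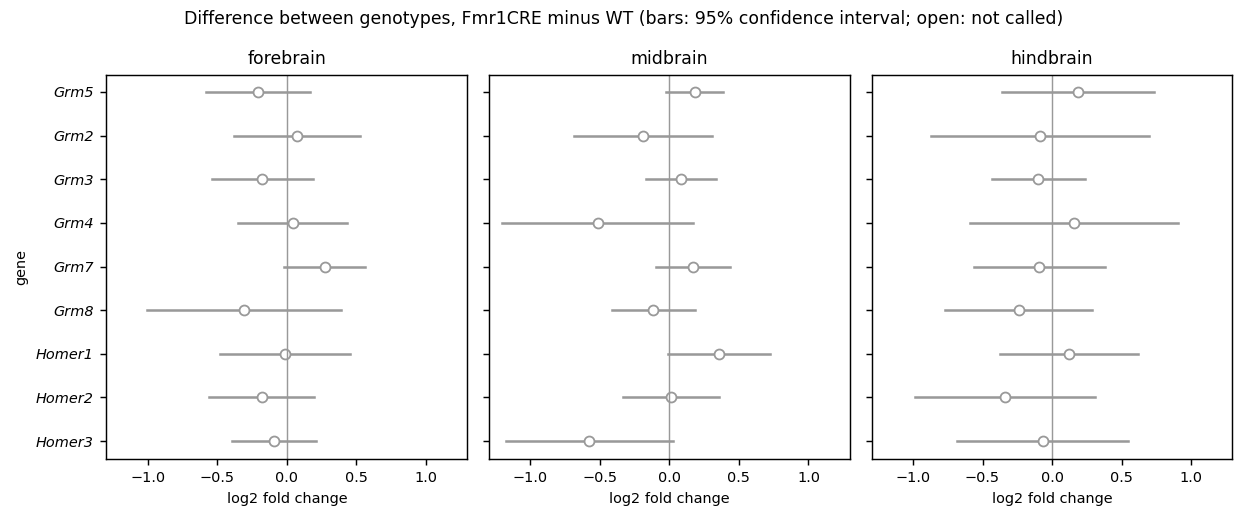
Log2 fold change of the 9 genes for Fmr1CRE minus WT (horizontal axes) in forebrain, midbrain and hindbrain, with 95% confidence intervals as bars; open points were not called. All 27 intervals reach 0, the largest difference being that of Homer3 in midbrain at -0.58.

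An interaction of genotype and region was called for 0 of the 9 members and for 0% of all genes, with adjusted p of 0.743 to 0.953 over the members. Without both mice of replicate 3 it was called for 131 genes, of which 0 were members, and the lowest adjusted p of a member was 0.178, for Grm5. The lists of partners held 0 called genes in any genotype comparison. The medians of the 3 signalling and scaffold lists were -0.11, -0.13 and -0.17 in forebrain. They were 0.022, -0.070 and -0.17 for midbrain, and 0.079, 0.16 and 0.22 for hindbrain. The medians over all genes were 0.00095 (forebrain), -0.0046 (midbrain) and -0.0091 (hindbrain). In hindbrain 12 of 13 Homer partners were positive, against 2 in forebrain and 1 in midbrain. Differences between the list medians were not tested.

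The immediate early genes differed widely between libraries of 1 genotype. Summed CPM of the 13 genes was 838, 203 and 722 in WT forebrain and 816, 926 and 204 in Fmr1CRE forebrain. WT replicate 2 and Fmr1CRE replicate 3 were low, and they were also the 2 lowest in Homer1 (145 and 147 CPM). Arc, an activity-induced gene of the postsynaptic density, had 26.9 and 28.6 CPM in these 2 libraries and 198 to 293 in the other 4. In midbrain the sum was 628, 238 and 156 CPM in WT and 292, 611 and 547 in Fmr1CRE, and in hindbrain 138, 71.5 and 62.7 in WT and 136, 148 and 140 in Fmr1CRE. So WT replicates 2 and 3 were the low ones in midbrain and hindbrain, while in forebrain WT replicate 3 was high and Fmr1CRE replicate 3 was low. All 13 genes had positive log2 fold changes in midbrain (median 0.51) and all 12 tested had them in hindbrain (median 0.73), with 0 called. The part of neuronal activity before dissection in Homer1 was not tested.

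The short Homer1 transcripts, estimated apart from the long ones, made up 28.4% to 51.8% of the short plus long Homer1 reads of a library (median 37.2% over 18). The share was 42.9% ± 8.09 in forebrain, 37.9% ± 4.502 in midbrain and 34.3% ± 4.43 in hindbrain (SD, n = 6), and the ranges overlapped. In WT forebrain it was 50.3%, 32.3% and 42.2%, and in Fmr1CRE forebrain 46.3%, 51.8% and 34.7%, so the 2 libraries low in immediate early genes had the 2 lowest shares. In midbrain it was 41.5%, 33.5% and 33.2% in WT and 36.8%, 44.7% and 38.0% in Fmr1CRE. In hindbrain it was 35.2%, 28.4% and 30.8% in WT and 33.4%, 40.5% and 37.6% in Fmr1CRE. The genotypes overlapped in each region.

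As levels, the short transcripts reached 5.26 and 6.02 TPM in the 2 forebrain libraries low in immediate early genes, WT replicate 2 and Fmr1CRE replicate 3, and 10.42 to 19.04 TPM in the other 4. The long transcripts had 14.6 and 15.4 TPM in the same 2 libraries, inside the 10.96 to 19.46 TPM of the other 4. Over regions, short transcripts fell from 11.3 TPM ± 5.35 in forebrain to 7.37 ± 2.69 in midbrain and 1.55 ± 0.48 in hindbrain, and long ones from 14.7 ± 2.87 to 10.7 ± 1.99 and 2.91 ± 0.55 (SD, n = 6). Hindbrain did not overlap with the other regions for either class. By single transcripts, Homer1-204 held a median of 32.3%, 25.7% and 22.6% of all Homer1 reads in forebrain, midbrain and hindbrain, and Homer1-202 held 34.9%, 37.1% and 46.6%. Homer1-207, which starts at the first promoter shown above, held 4.61%, 5.80% and 3.53%. These are estimates for transcripts that share part of their sequence, from single-end reads of 50 bases. With the records' own placement of the files, the regional shares were 40.6%, 36.1% and 38.5%.

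**Figure D5:**
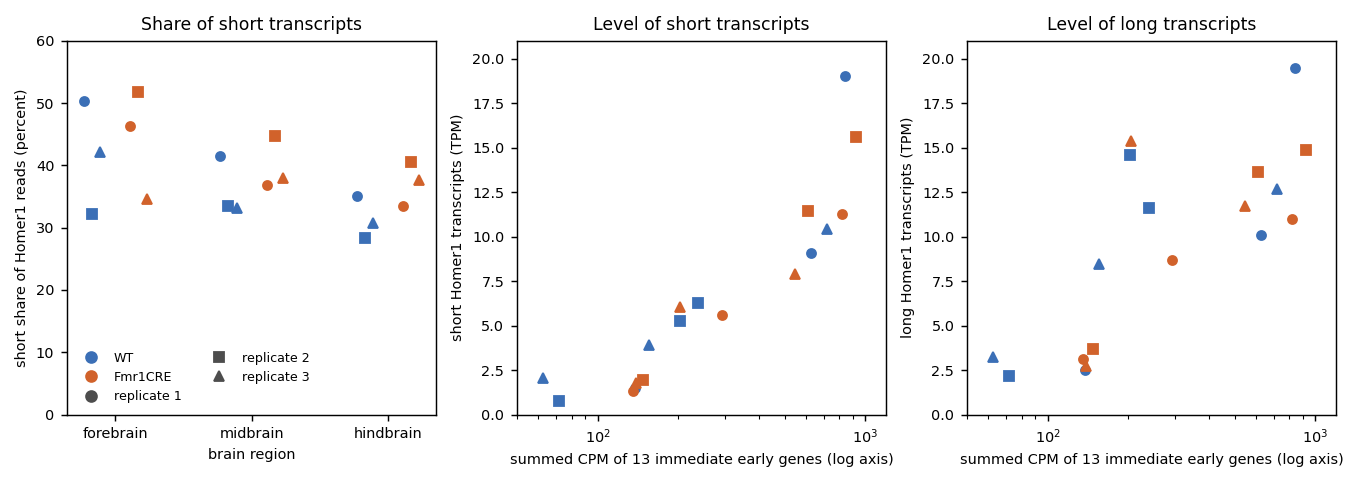
Left, share of short transcripts in the short plus long Homer1 reads (percent) by region; middle and right, level of short and of long Homer1 transcripts (TPM) against the summed CPM of 13 immediate early genes (log axis), 1 point per library, with blue for WT, orange for Fmr1CRE and a symbol per replicate number. In forebrain the short level is 5.26 and 6.02 TPM at the 2 lowest sums (203 and 204 CPM) and at least 10.42 TPM at the other 4, while the long level lies between 10.96 and 19.46 TPM throughout.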

How the data were processed

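Poly(A) RNA of 18 libraries (3 per region and genotype) was read as single ends of 50 bases. Per the labels, the authors' processing notes name Salmon 0.14.0, DESeq2 1.30.1 and mm10, and the methods name the bcbio_nextgen pipeline. The annotation release is not given in the sources used here. The deposited gene values are expected counts: the authors' Salmon TPM scaled by transcript length and library size and rounded to whole numbers, as a recalculation from the deposited transcript tables gave back. The transcript tables hold the authors' estimated counts and TPM. Measured columns with no place among the samples numbered 0. The variance-stabilized values were not used here.

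The test planned for counts was kept for these rounded values. They were tested with edgeR 4.0.16 in R 4.3.3 (TMM scaling, filterByExpr, quasi-likelihood test, Benjamini-Hochberg adjustment over all genes tested, called under 0.05). Regions were compared in 1 fit of 18 libraries with 6 groups, genotypes within the 6 libraries of a region, and the interaction in the fit of 18. CPM used TMM scaling, with a prior count of 2 on the log2 scale. TPM for genes divided the counts by the mean effective length. DESeq2 1.42.0 and other scalings, filters and blocks served as alternatives. The fits were tested on simulated data. Intervals cover the spread between these libraries only, at a level of 95%.

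The regions of a mouse are paired by animal, as the sample titles carry the same mouse number. Deviations from the group means of libraries of 1 mouse correlated across genes between -0.17 and 0.18, and those of same-numbered mice of both genotypes between -0.12 and 0.07. No replicates agreed within sampling noise (chi-square per gene at least 12.3).

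The members (named as a gene family, with no threshold on their values), the lists of 15, 19, 14 and 13 partner genes and the marker lists were chosen with earlier results of these data known. Named were the 9 members, for each the 3 genes with the highest Pearson correlation over the 18 libraries, and from the lists the 2 called genes with the largest log2 fold change in each direction per region comparison and any called between genotypes. Some genes that this rule names are not reported here. Fmr1, the markers and the immediate early genes given by library were named after their values were seen. Blood, choroid plexus and oligodendrocyte lineage markers were summed as a check. Blood sums ran from 993 to 2573 CPM in hindbrain and from 413 to 1449 elsewhere, choroid plexus sums from 894 to 3211 and from 167 to 864, oligodendrocyte sums from 29540 to 41480 and from 12880 to 20200, and precursor sums from 40.3 to 72.8 and from 63.9 to 102.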

Additional observations from a re-analysis of the deposited data

How the results depend on the processing

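Apart from the calls of Grm4, Grm8 and Homer2 given above with the mice they rest on, each region call of a member held under the alternatives run. With mouse as a replicate block, 8, 6 and 8 members were called in forebrain against hindbrain, forebrain against midbrain and midbrain against hindbrain, as without it, and Homer2 in forebrain against midbrain was at the limit (edgeR adjusted p = 0.05). Of all 20363 genes, 10201, 3464 and 9671 were called with the mouse block. Leaving out single mice gave 8, 4 to 6 and 7 to 9 members. Beside them 9077 to 9970, 2258 to 4001 and 7841 to 9693 of all genes were called, with 20669 to 20821 tested. With total counts alone the median log2 fold change of all genes moved to -0.15 in forebrain against hindbrain and -0.11 in midbrain against hindbrain, and genes higher in the first region made up 4349 of 11168, 1391 of 4317 and 4515 of 10244 calls, against 5383 of 10530, 1911 of 3939 and 5114 of 9994 with TMM scaling. Called genes in forebrain against midbrain numbered 2258 to 4001 when single mice were left out (1122 to 1785 higher in forebrain), with 2258 without WT replicate 1, 2337 without WT replicate 2 and 2592 without Fmr1CRE replicate 1. The cause was not tested.

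No alternative called a member between genotypes. The replicate number as a block, which pairs these mice by number alone, gave 0 members in each region and turned the sign of Homer2 in midbrain (-0.00035). The number of all genes called was 1 in forebrain and hindbrain and 0 in midbrain with 1 fit of 18 libraries; 31, 62 and 60 with DESeq2 in forebrain, midbrain and hindbrain; 11 in midbrain and hindbrain and 7 for the interaction without a filter; 0 in midbrain with at least 10 counts per library; 3, 1 and 131 in midbrain, hindbrain and the interaction without replicate 3; and 51 for the interaction with DESeq2. Reads summed without length scaling, an alternative chosen after seeing the data, gave 2 in midbrain and 1 in hindbrain. Single mice left out gave 0 to 4 in midbrain, 0 to 5 in hindbrain and 0 to 4 for the interaction, with most without Fmr1CRE replicate 3 in midbrain and the interaction and without WT replicate 3 in hindbrain. The causes were not tested.

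Differences near 0 changed sign, and without length scaling some of the larger genotype differences did so too. In the main fit these were Grm7 (0.27) and Grm8 (-0.31) in forebrain, and Grm8 (-0.24) and Homer2 (-0.34) in hindbrain. Grm5 in forebrain against midbrain became 0.0048 with the stricter filter and 0.053 without length scaling. In forebrain, Homer1 became 0.016 with total counts alone and 0.093 without replicate 3; without length scaling Grm2 became -0.17, Grm4 -0.075, Grm7 -0.011, Grm8 0.078, Homer1 0.025 and Homer3 0.0069. In hindbrain, Grm3, Grm4 and Grm7 became 0.10, -0.098 and 0.22 without replicate 3, and Grm2, Grm7, Grm8 and Homer2 became 0.28, 0.0055, 0.039 and 0.055 without length scaling. With single mice left out, Grm8 ran from -0.34 to 0.059 in forebrain against hindbrain and Grm5 from -0.080 to 0.089 in forebrain against midbrain. For genotype, Grm2, Grm4 and Homer1 ran from -0.093 to 0.19, -0.12 to 0.20 and -0.17 to 0.18 in forebrain, and Grm3 and Homer2 from -0.026 to 0.14 and -0.10 to 0.15 in midbrain. In hindbrain Grm5 ran from -0.019 to 0.48, Grm2 from -0.38 to 0.16, Grm3 from -0.17 to 0.050, Grm4 from -0.13 to 0.40, Grm7 from -0.21 to 0.088, Grm8 from -0.36 to 0.020, Homer1 from -0.095 to 0.35, Homer2 from -0.53 to 0.024 and Homer3 from -0.39 to 0.15.

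With the longest annotated transcript as length, Homer1 stood at 61.3 TPM in forebrain and 39.2 in midbrain and Homer3 at 78.3 in hindbrain. The mean Homer1 short share moved by less than 1 SD of its region's libraries under each alternative tried. This rule is weak. The SD comes from the same libraries, so leaving mice out could not fail it, and the records' own placement also passed. In forebrain, midbrain and hindbrain the share was 41.8%, 39.9% and 34.2% with TPM in place of reads. With the most abundant short and long transcript alone it was 47.5%, 41.75% and 32.8%. Another rule for which transcripts are short gave 42.0%, 35.75% and 33.8%, and both mice of replicate 3 left out 45.2%, 39.1% and 34.4% (both chosen after seeing the data). Single mice left out gave 41.2% to 45.1%, 36.6% to 38.9% and 33.1% to 35.5%.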
